A study of Mus musculus with 2 samples.

Results

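The 7 aquaporin genes Aqp1, Aqp3, Aqp4, Aqp5, Aqp8, Aqp9 and Aqp11 were followed through the cells of the mouse uterus. They are 7 of 32285 genes in the count tables, and they were chosen by name, with earlier results of these data known. Their counts are therefore given as descriptions. Whole uteri of mice aged 6 months were dissociated with collagenase and profiled by droplet-based sequencing of transcript 3-prime ends, counted as unique molecular identifiers (UMIs). The control library came from Prickle1 f/f females and the conditional knockout (cKO) library from Prickle1 f/f Ltf-cre females, called Ltf-iCre in the series' design. Both groups carried the floxed Prickle1 alleles, and the cKO group alone carried the Cre, which is driven by Ltf, a gene transcribed in the uterine epithelium. A separate genotype entry names both samples C57BL/6J wild-type. That differs from the titles, and the groups here follow the titles.

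The uteri of 3 mice were pooled for each group and made into 1 library, so genotype, animals and library preparation cannot be told apart and no difference has a replicate check. Every interval below is a 95% interval for counting error alone. Total UMIs came to 45035801 in the control and 57145553 in the cKO library. A barcode counted as a cell when it showed 500 genes or more and no more than 20% of its UMIs were mitochondrial, which gave 3653 in control and 4950 in cKO, with 5 cell barcodes occurring in both. Prickle1 itself had 14 UMIs in control and 4 in cKO epithelial cells, 0.831 and 1.31 CPM (CPM is the gene's UMIs scaled to a common total of UMIs), so its loss was not detectable at this depth, and 3-prime counts need not report the deletion. Ltf, whose promoter drives the Cre, had 1549 CPM in control against 143 CPM in cKO epithelial cells.

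Aquaporins are channels in cell membranes that let water follow osmotic gradients. Aqp1, Aqp4, Aqp5 and Aqp8 pass mainly water, Aqp3 and Aqp9 are aquaglyceroporins that also pass glycerol and other small solutes, and Aqp11 is a distant member found on intracellular membranes. In the uterus, several of them are known to respond to ovarian steroids and to move fluid into and out of the lumen and the stroma.

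Cells were sorted into 6 classes by a UMI of a single gating gene: Epcam for epithelial, Pdgfra for stromal, Actg2 for muscle, C1qa for macrophage, Cd3e or Ncr1 for lymphoid and Msln for mesothelial. Epithelial cells numbered 947 in control (25.9% of cells) and 103 in cKO (2.08%), stromal cells 621 and 1469, muscle cells 290 and 537, macrophages 231 and 112, lymphoid cells 158 and 435, and mesothelial cells 26 and 32. A further 1201 and 1998 cells held no gating gene, and 179 and 264 held several. A level is the UMIs of a gene summed over a class, as CPM of the class total.

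The labels of the classes were checked against marker genes. The epithelial markers summed to 11684 CPM in the control and 10112 CPM in the cKO epithelial class, with all 7 markers present in each. Of the Epcam-gated cells, however, 20 of 947 in control (2.11%) and 47 of 103 in cKO (45.6%) had no UMI of Krt8, Krt18 or Krt19. The cKO epithelial class also held markers of other cells. B or plasma cell markers summed to 1996 CPM against 1.19 CPM in control, lymphoid markers to 379 against 13.4 CPM, smooth muscle markers to 533 against 27.8 CPM and squamous markers to 484 against 113 CPM. Epithelial values are therefore also given for the cells with a keratin UMI, a split made after the values were seen. The mesothelial class carried all 5 mesothelial markers, 1599 CPM in control and 2306 CPM in cKO, but its stromal markers summed to more, 10032 and 13662 CPM.

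On GRCm38 with the GENCODE M21 annotation, Aqp1 (ENSMUSG00000004655) lies at chr6:55336432-55348555 on the plus strand and Aqp5 (ENSMUSG00000044217) at chr15:99590782-99594829 on the plus strand. Aqp8 (ENSMUSG00000030762) lies at chr7:123462291-123468004 on the plus strand and Aqp11 (ENSMUSG00000042797) at chr7:97724006-97738289 on the minus strand. Aqp3 (ENSMUSG00000028435) lies at chr4:41092722-41098183 on the minus strand. Aqp9 (ENSMUSG00000032204) lies at chr9:71110659-71168682 on the minus strand, where the antisense gene Gm32511, which the count tables also list, overlaps it. Aqp4 (ENSMUSG00000024411) lies at chr18:15389496-15410982 on the minus strand, overlapped by an antisense gene in the annotation.

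The 5 other genes of the family in the count tables were not members. Aqp7, an aquaglyceroporin, had 1 UMI in control and 14 in cKO cells, Aqp2 had 7 and 0, Aqp6 had 5 and 1, the lens channel Mip had 2 and 2, and Aqp12 had 1 and 0. The members with the fewest UMIs were Aqp4, with 14 and 0, and Aqp11, with 34 and 28. The members were listed by name and not by a count, so Aqp7 had more UMIs than the member Aqp4, and neither Aqp4 nor any of the 5 outsiders reached 20 UMIs in a class.

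The promoters of 3 genes are shown: those of Aqp1 and Aqp8, because both genes were higher in cKO stromal cells and in the same stromal subgroups, and that of Aqp3, because its UMIs lay in a lymphoid subgroup. They are RefSeq promoters of GRCm38.p6, each 300 bases, written 5′ to 3′ on the gene's strand, at chr6:55336049-55336348 (plus strand), chr7:123462044-123462343 (plus strand) and chr4:41098134-41098433 (minus strand). Capitals mark matches, on either strand, to 4 motifs: the TATA box as TATAAA, the GC box as GGGCGG, the core shared by many nuclear receptor elements as GGTCA, and the core of steroid receptor elements as TGTTCT.
Aqp1: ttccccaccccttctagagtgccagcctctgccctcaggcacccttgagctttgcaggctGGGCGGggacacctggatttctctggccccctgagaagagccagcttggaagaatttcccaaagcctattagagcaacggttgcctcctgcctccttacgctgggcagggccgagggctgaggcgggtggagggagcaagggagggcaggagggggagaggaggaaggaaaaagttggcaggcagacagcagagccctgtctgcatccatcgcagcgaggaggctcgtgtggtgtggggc
Aqp8: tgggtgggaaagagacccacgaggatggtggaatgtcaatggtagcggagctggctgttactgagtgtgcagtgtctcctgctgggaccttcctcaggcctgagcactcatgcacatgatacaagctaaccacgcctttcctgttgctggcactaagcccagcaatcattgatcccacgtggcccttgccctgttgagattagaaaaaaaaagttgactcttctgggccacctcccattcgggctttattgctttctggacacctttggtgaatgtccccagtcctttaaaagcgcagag
Aqp3: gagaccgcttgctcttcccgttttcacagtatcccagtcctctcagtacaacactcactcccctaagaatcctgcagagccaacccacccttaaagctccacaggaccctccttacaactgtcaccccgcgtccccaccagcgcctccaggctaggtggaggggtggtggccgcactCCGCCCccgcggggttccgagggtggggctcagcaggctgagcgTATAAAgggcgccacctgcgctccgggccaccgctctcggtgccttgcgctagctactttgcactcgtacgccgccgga

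Aqp3 held the TATA box on its own strand 29 bases before the start, and a GC box on the other strand, so that its complement is printed. Aqp1 held 1 GC box on its own strand. Its RefSeq window ends before the GENCODE gene start given above, chr6:55336432, whereas the windows of Aqp8 and Aqp3 span theirs. Aqp8 held none of the 4 motifs. Of 32851 RefSeq promoters of that length, 13.6% held the TATA box, 35.7% the GC box, 40.5% the nuclear receptor core and 19.0% the steroid receptor core. The CpG dinucleotide occurred 8 times in the Aqp1 window, 6 times in that of Aqp8 and 21 times in that of Aqp3, against a median of 7. The stromal pair therefore shared no motif of this set, and these matches are descriptions of letters only.

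The 5 better-counted aquaporins were spread unequally over the classes. In control, 85.0% of the Aqp5 UMIs and 96.0% of the Aqp8 UMIs in cells lay in the epithelial class, 39.4% of the Aqp3 UMIs in lymphoid cells and 30.7% in epithelium, 71.4% of the Aqp9 UMIs in cells with no gate, and 36.6% of the Aqp1 UMIs in stroma. In cKO the epithelium, with its fewer cells, held 23.4% of Aqp5 and 28.8% of Aqp8, while 60.1% of Aqp8, 49.3% of Aqp1 and 40.6% of Aqp5 lay in stroma, 69.7% of Aqp3 in lymphoid cells and 74.3% of Aqp9 in cells with no gate. All cells together held 4119 aquaporin UMIs in control and 3623 in cKO.

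**Figure D1:**
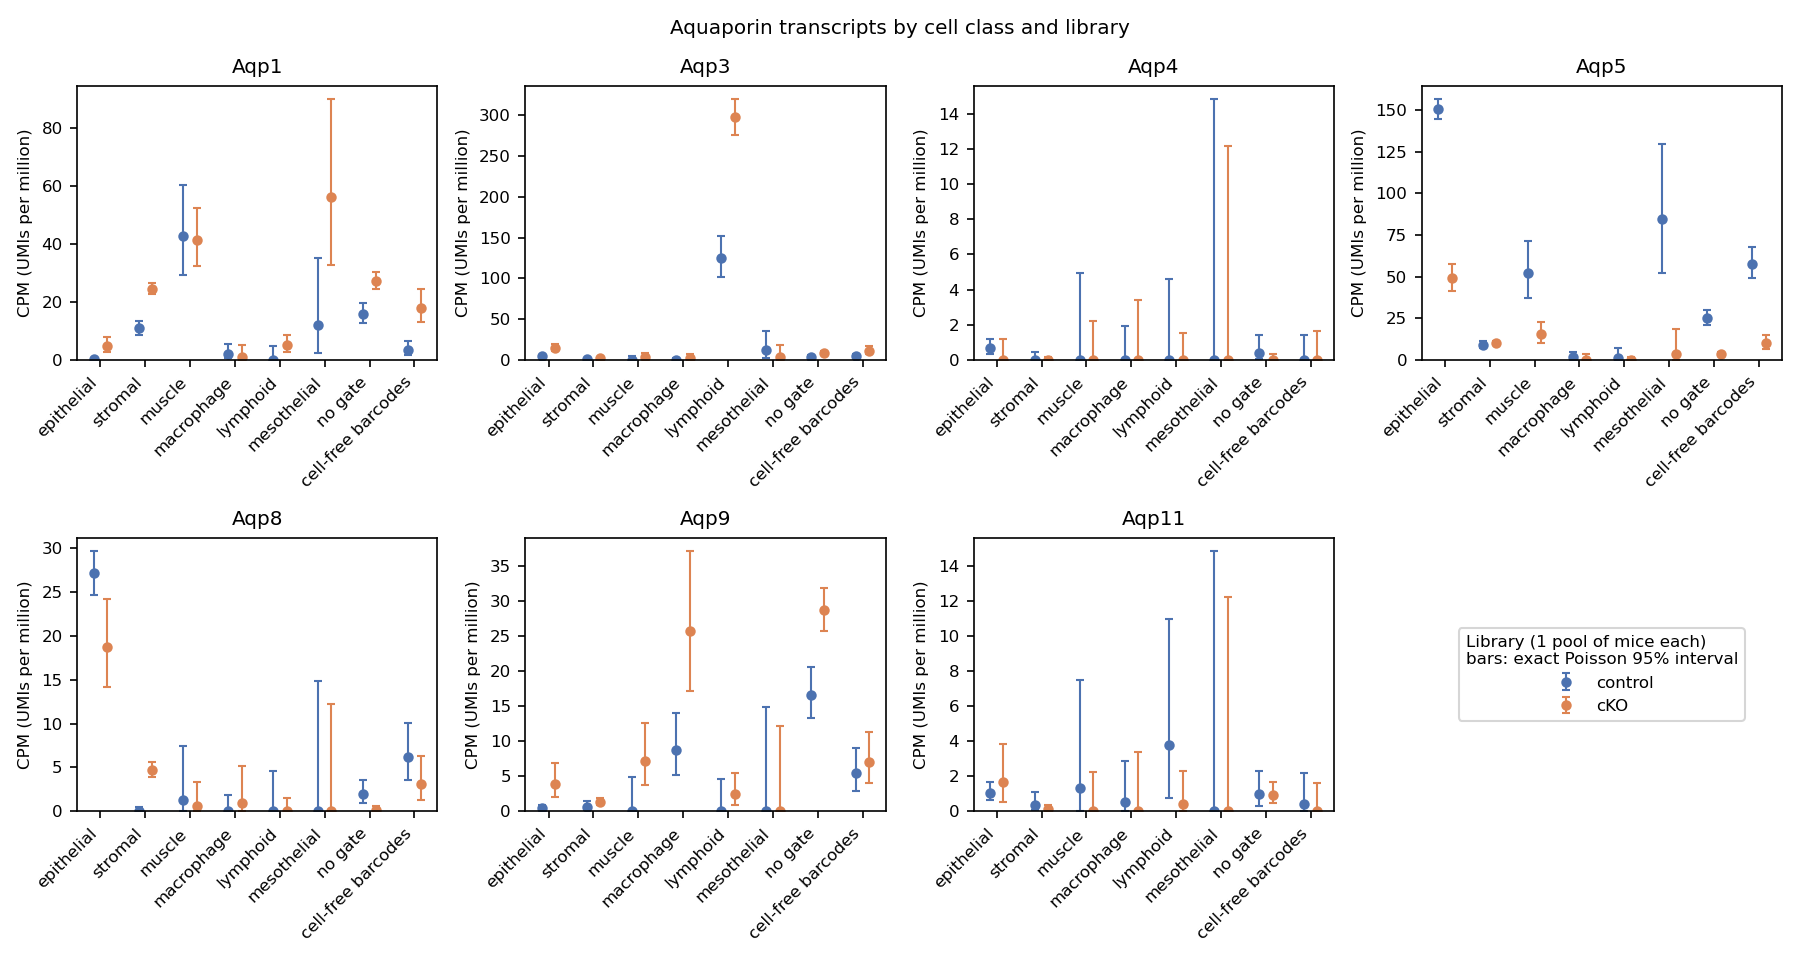
Level of each aquaporin (CPM, linear axis) in 6 cell classes, in cells with no gate and in cell-free barcodes; blue points are the control library, orange points the cKO library, and bars are exact Poisson 95% intervals. Aqp5 and Aqp8 stood highest in epithelium in both libraries, with Aqp8 also at 4.66 CPM in cKO stroma, and Aqp3 stood highest in lymphoid cells at 125 CPM in control and 297 CPM in cKO.

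Aqp5, a water channel known from the apical membrane of secretory glands, had its highest level in the epithelial class in control. There it had 2537 UMIs in 272 of 947 control cells, a level of 151 CPM (145 to 157), and 149 UMIs in 19 of 103 cKO cells, a level of 48.9 CPM (41.4 to 57.5). The cKO level was 3.08-fold lower (2.61 to 3.65). Among cells with a keratin UMI the levels were 152 and 58.8 CPM, which is 2.58-fold lower (2.18 to 3.06). The keratin-free Epcam cells of cKO held 1 Aqp5 UMI.

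Within the class Aqp5 also varied with depth. Control cells with at least 10000 UMIs had 166 CPM and shallower ones 63.7 CPM. In cKO, 148 of the 149 UMIs lay in the deeper cells, at 52.8 CPM, so the contrast among deep cells was 3.15-fold (2.67 to 3.74). Counts per cell were uneven: 94 of the 272 positive control cells had a single UMI and 63 had at least 10, with 93 in the richest cell, and 6 of the 19 positive cKO cells had at least 10. The share of epithelial cells with a UMI was 28.7% in control and 18.4% in cKO at median depths of 6195 and 12093 UMIs. After each cell was thinned to 1000 UMIs it was 6.70% (5.19 to 8.49) and 2.91% (0.605 to 8.28), and the thinned intervals overlap. Macrophages, which should lack the gene, held it in 2 of 231 control cells (0.866%) at a median of 7999 UMIs and in 0 of 112 cKO cells, which allows up to 2.68% of cells with a UMI.

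Subgroups of the epithelium differed in their Aqp5. Cells with Mki67, a proliferation gene, had 255 CPM in 38 control cells and 37.4 CPM in 7 cKO cells, a 6.83-fold lower level (4.41 to 11.1). Cells with Foxa2, a transcription factor of uterine glands, had 298 CPM in 16 control cells and 129 CPM in 4 cKO cells. Cells with a squamous gene (Krt5, Krt14 or Trp63) had 236 CPM in 14 control cells and 139 CPM in 5 cKO cells. In all 3 subgroups the cKO level was below the control level, although the cKO values rest on 4 to 7 cells each. Control cells with Ifnb1, the interferon beta gene, numbered 79 and had 114 CPM, and no cKO epithelial cell held that gene.

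**Figure D2:**
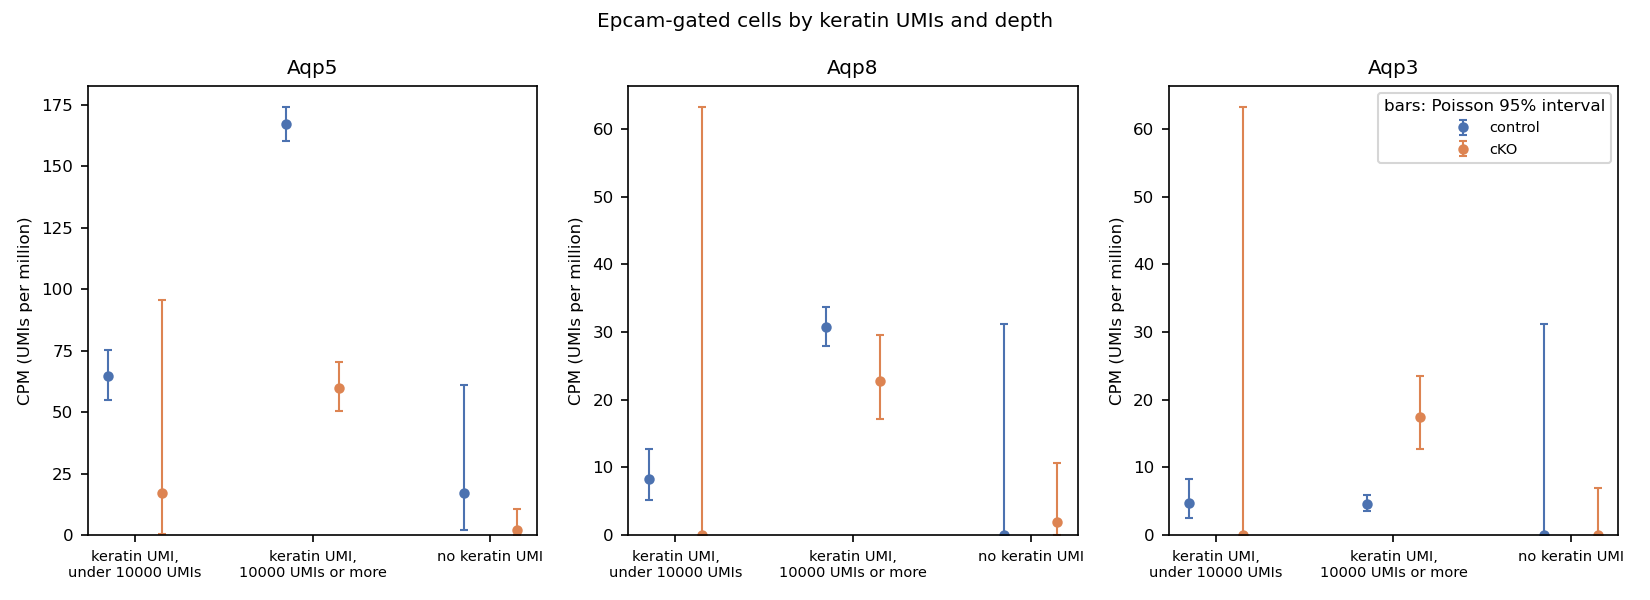
Levels of Aqp5, Aqp8 and Aqp3 (CPM, linear axes) in Epcam-gated cells split by a UMI of Krt8, Krt18 or Krt19 and by depth; blue is control, orange is cKO, and bars are exact Poisson 95% intervals. Aqp5 was lower in cKO among the deep keratin cells (167 against 59.8 CPM) and Aqp3 higher (4.65 against 17.5 CPM), while the shallow and the keratin-free cKO cells held 1 Aqp5 UMI each.

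Outside the epithelium, Aqp5 was measured against the RNA that floats free of cells. Barcodes with at most 100 UMIs held 57.8 CPM of Aqp5 in control and 10.1 CPM in cKO. Stromal cells had 73 UMIs, 9.06 CPM, in control and 258 UMIs, 10.1 CPM, in cKO, a ratio of 1.11 (0.856 to 1.47), an interval that spans 1. Taking 10% of each class's UMIs as cell-free RNA and subtracting it, the log2 ratio was 1.45 against 0.15 as reported, so this comparison depends on that correction. Stromal cells with a UMI of any of 7 epithelial markers had 9.28 CPM in control, 1.03 times the level of those without (0.562 to 1.80), and 6.84 CPM in cKO, 0.657 times (0.362 to 1.11). Within stroma, cells with Hsd11b2, which inactivates glucocorticoids, had 27.0 CPM in control against 10.5 CPM in cKO. Muscle cells had 39 UMIs, 52.2 CPM, in control, near the cell-free level and with 23 of them in 1 cell, and 26 UMIs, 15.6 CPM, in cKO. The log2 ratio, -1.73, was -0.85 without the richest cell of each library. Their epithelial markers were ordered the same way, 207 CPM in control against 19.8 CPM in cKO, with Epcam at 0 in each by the gate, and the part of that in the result was not tested. Mesothelial cells had 21 Aqp5 UMIs in 7 of 26 control cells and 1 UMI in 32 cKO cells, 84.6 and 3.31 CPM, a log2 ratio of -4.12 that was -1.17 with cells of several gates kept. Over all cells, whose classes differ in share between the libraries, Aqp5 was at 79.2 CPM in control and 12.02 CPM in cKO, 6.59-fold lower (6.04 to 7.19).

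Aqp8, which also passes ammonia and hydrogen peroxide, was the other epithelial channel. It had 457 UMIs in 112 control epithelial cells, 27.1 CPM (24.7 to 29.7), and 57 UMIs in 16 cKO cells, 18.7 CPM (14.2 to 24.3). The cKO level was 0.690 of control (0.515 to 0.910). That difference did not hold in cells with a keratin UMI, where the ratio was 0.814 (0.605 to 1.08), and the ratio's sign turned when each cell was given equal weight, with a log2 ratio of 0.18, and after thinning to 1000 UMIs, with 1.14 on 17 UMIs. With trimmed-mean (TMM) scaling it was -1.05, against -0.52 as reported. The share of cells with a UMI was 11.8% in control and 15.5% in cKO, and 1.28% and 2.91% after thinning.

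Aqp8 and Aqp5 met in the same epithelial cells. Of the 112 control cells with Aqp8, 82 (73.2%) also held Aqp5, against 28.7% of the class, and in cKO it was 10 of 16 (62.5%) against 18.4%. Cells holding both were deep, with median UMIs of 53505 in control and 61088 in cKO, and depth raises the chance of finding any pair of genes in a cell. The part of depth in this overlap was not tested.

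In stroma Aqp8 was counted in cKO alone. No control stromal cell of 621 held a UMI, which at this depth allows up to 0.483% of cells with a UMI and does not bound the cells that express the gene, and 34 of 1469 cKO cells (2.31%, 1.61 to 3.22) held 119 UMIs. The level was 4.66 CPM (3.86 to 5.58) in cKO and 0 in control, at least 12.5-fold higher when 3 counts are allowed for the control class. Stromal markers in the class summed to 10471 CPM in control and 9841 CPM in cKO. Median depth was 11763 and 15694 UMIs, and after thinning to 1000 UMIs only 2 of 1458 cKO cells kept an Aqp8 UMI, so the thinned data cannot show the difference. Cell-free barcodes held 6.21 CPM in control against 3.06 CPM in cKO, the reverse of the stromal order.

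Most of the stromal Aqp8 sat in a few cells. Of the 34 cells, 17 had a single UMI, 9 had at least 5 and 3 at least 10, with 17 UMIs in the richest. Epithelial markers summed to 80.2 CPM in the Aqp8-positive cells and 5.22 CPM in the rest of the class. Stromal cells with a UMI of any of the 7 epithelial markers held 23 of the 119 UMIs, 10.5 CPM, and those without held 96, 4.11 CPM, a ratio of 2.55 (1.54 to 4.05). Leaving out stromal cells with the endothelial genes Cdh5, Prox1 or Mmrn1, a choice made after the values were seen, kept 91 UMIs. The log2 ratio was then 5.90, against 6.24 as reported. Over all cKO cells, those with any of these genes had 8.45 CPM of Aqp8 and the others 3.32 CPM, 2.55-fold (1.73 to 3.66). In control they held 0 Aqp8 UMIs in 66 cells. The parts of epithelial RNA and of endothelial-gene cells in the stromal Aqp8 were not tested.

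Several genes that split the cKO stroma also split its Aqp8. Cells with Cyp26b1, a retinoic acid hydroxylase, had 15.9 CPM against 2.83 CPM in cells without it, 5.61-fold (3.85 to 8.17). Cells with Dio2, which activates thyroid hormone, had 7.59 against 1.05 CPM, and cells with Hsd11b2 had 7.67 against 1.25 CPM. Cells with Rorb, an orphan nuclear receptor, had 9.12 against 1.95 CPM and included 26 of the 34 positive cells. Cells with the cytokine gene Il6 had 0.613 CPM against 6.56 CPM. For Wnt16, a secreted Wnt ligand, the ratio was 1.57 (0.960 to 2.48) and for Stra6, the retinol uptake receptor, 1.71 (0.973 to 2.84), intervals that span 1. Each of these comparisons is within the cKO library and treats UMIs, not cells, as independent.

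Aqp1, the constitutive water channel of vessels and many connective tissues, was counted in stroma, endothelium and muscle. In stromal cells it had 87 UMIs in 12 of 621 control cells, 10.8 CPM (8.65 to 13.3), and 625 UMIs in 136 of 1469 cKO cells, 24.5 CPM (22.6 to 26.5). The cKO level was 2.27-fold higher (1.81 to 2.87), and the share of cells with a UMI was 1.93% in control and 9.26% in cKO. In macrophages, at median depths of 7999 and 8102 UMIs, that share was 0.866% in control and 0.893% in cKO. The control sum leaned on 1 cell with 41 of the 87 UMIs, which also was the only Aqp1-positive stromal cell with a UMI of the endothelial genes Cdh5, Prox1 or Mmrn1. Without cells holding any of those 3 genes, a choice made after the values were seen, the levels were 5.92 and 23.0 CPM, 3.88-fold apart (2.87 to 5.36).

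In the cKO stroma Aqp1 was split by the same genes as Aqp8, and by Wnt16 and Stra6. Cells with Rorb had 51.7 CPM against 7.93 CPM without it, 6.52-fold (5.35 to 7.99). Dio2 separated 38.9 from 6.73 CPM, Hsd11b2 37.5 from 9.77 CPM and Cyp26b1 55.9 from 19.3 CPM. Of the 10 genes used to split the stroma, the highest levels were in cells with Stra6, at 74.2 CPM, and in cells with Wnt16, at 72.4 CPM. Cells with Cilp, an extracellular matrix gene, had 8.37 CPM against 33.2 CPM, and cells with Myoc, the myocilin gene, had 1.59 CPM. For Aqp5 the ratio of cKO cells with to those without was 0.795 for Rorb (0.605 to 1.04), 1.08 for Hsd11b2 (0.840 to 1.39) and 0.905 for Dio2 (0.703 to 1.16), intervals that all span 1. It was 0.541 for Cyp26b1 (0.329 to 0.846), 0.357 for Wnt16 (0.192 to 0.610) and 0.550 for Stra6 (0.296 to 0.941). In control stroma, Aqp5 was 4.13-fold higher in cells with Hsd11b2 than in those without (2.47 to 6.79). Of the 34 stromal cells with Aqp8, 12 (35.3%) also had Aqp1, against 9.26% of the class.

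**Figure D3:**
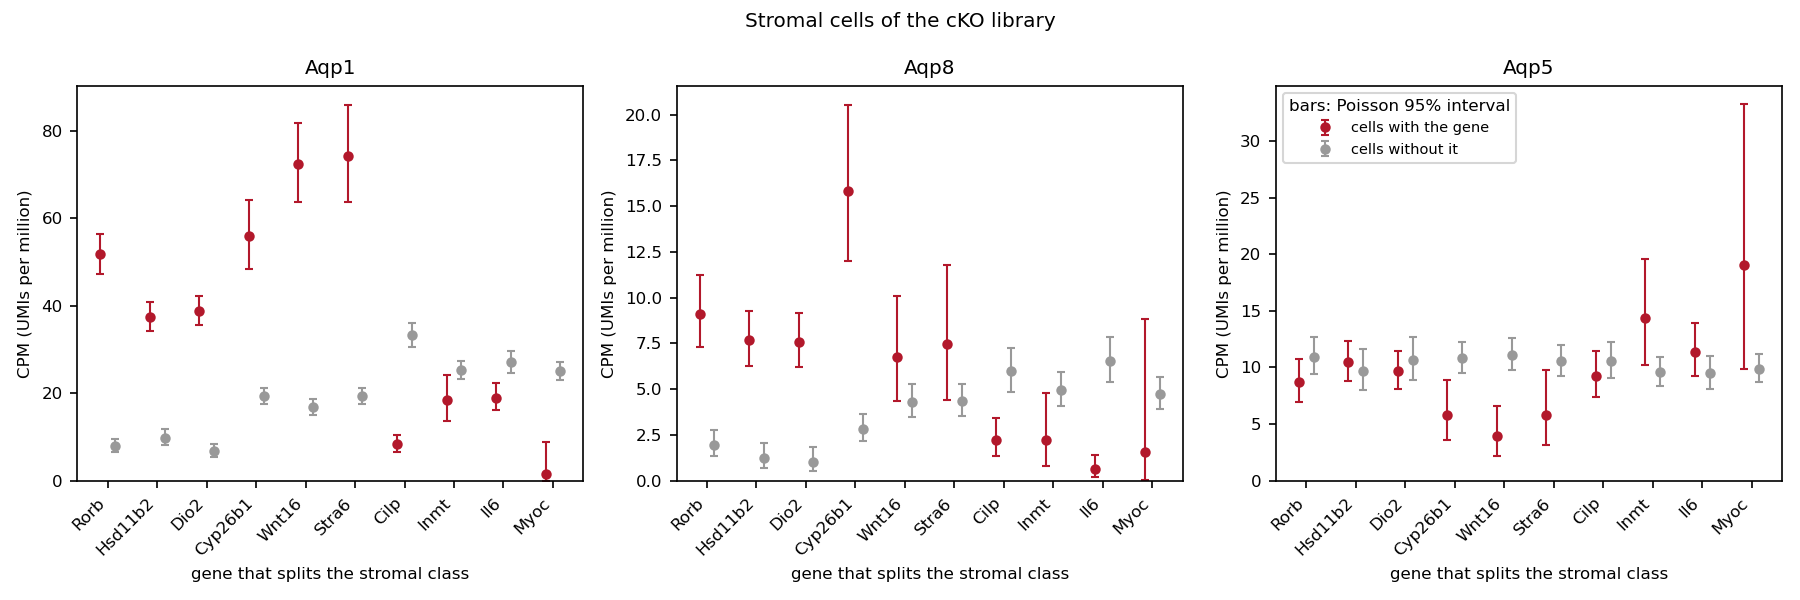
Levels of Aqp1, Aqp8 and Aqp5 (CPM, linear axes) in stromal cells of the cKO library with a UMI of the gene named below the axis (red) and without one (grey), with exact Poisson 95% intervals. Aqp1 and Aqp8 were higher in cells with Rorb, Hsd11b2, Dio2 or Cyp26b1 and lower in cells with Cilp, whereas Aqp5 lay at 10.5 and 9.69 CPM on the sides of Hsd11b2 and at 9.65 and 10.7 CPM on those of Dio2.

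The make-up of the stroma differed between the libraries along these same genes. Cells with a Rorb UMI were 37 of 621 in control (5.96%, 4.23 to 8.12) and 411 of 1469 in cKO (28.0%, 25.7 to 30.4). For Dio2 the shares were 15.0% and 44.8%, for Hsd11b2 10.5% and 41.9%, for Wnt16 0.644% and 8.51%, and for Myoc 21.1% and 2.25%. Within Rorb cells the Aqp1 level was 52.1 CPM in control and 51.7 CPM in cKO, and outside them 7.28 and 7.93 CPM. The control value in Rorb cells rests on 33 UMIs in 3 cells, and that outside them on 54 UMIs, of which 41 are those of the single endothelial-gene cell, so neither side gives a firm comparison. The part of cell make-up in the 2.27-fold contrast was not tested. Cells with Dio2 had 16.6 CPM in control against 38.9 CPM in cKO, 2.34-fold (1.57 to 3.65). For cells with Hsd11b2 the levels were 35.0 and 37.5 CPM, a ratio of 1.07 (0.760 to 1.56). For cells with Il6 they were 20.3 and 19.0 CPM, a ratio of 0.934 (0.663 to 1.34). Within a library, Il6 cells were 2.75-fold above other stromal cells in control (1.76 to 4.28) and 0.703 of them in cKO (0.582 to 0.844). Cells with Cilp had 5.31 and 8.37 CPM, with Inmt 2.32 and 18.4 CPM, and with Myoc 2.15 and 1.59 CPM. Cells with Cyp26b1 held 0 Aqp1 UMIs in 32 control cells and 55.9 CPM in 153 cKO cells. Only 12 control stromal cells held Aqp1, so every control value here rests on few cells.

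Cells with endothelial genes carried Aqp1 in both libraries, in groups formed after the values were seen. Over all cells, those with a UMI of Prox1 or Mmrn1, genes of lymphatic endothelium, had 80 UMIs in 45 control cells, 82.5 CPM, and 199 UMIs in 85 cKO cells, 93.0 CPM, a ratio of 1.13 (0.865 to 1.48). Of those 80 control UMIs, 41 were in the single endothelial-gene stromal cell named above, so the control level and the ratio lean on it. Cells with Cdh5, the endothelial cadherin, and neither lymphatic gene had 43.0 CPM in 21 control cells and 73.3 CPM in 68 cKO cells, 1.71-fold (1.08 to 2.83). Cells holding any of the 3 genes had 18.3-fold more Aqp1 than other cells in control (14.0 to 23.8) and 4.45-fold more in cKO (3.93 to 5.03). In control, the same stromal cell held 41 of the 101 UMIs of this group, so the 18.3-fold value leans on it too.

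In muscle cells the Aqp1 interval spanned 1, with 32 UMIs, 42.8 CPM, in control and 69 UMIs, 41.5 CPM, in cKO, a ratio of 0.968 (0.628 to 1.52). The log2 ratio, -0.06, was 0.71 with a gate of at least 2 UMIs and 0.88 with cells of several gates kept, so its sign depends on the setting. Mesothelial cells had 3 UMIs, 12.1 CPM, in 26 control cells and 17 UMIs, 56.2 CPM, in 32 cKO cells, 4.66-fold (1.35 to 24.8), with a log2 ratio of 2.04 that was 0.18 after thinning, on 5 UMIs. Endothelial markers were ordered alike in that class, with blood endothelial markers at 28.2 CPM in control and 202 CPM in cKO and lymphatic ones at 306 and 778 CPM. Without cells holding Cdh5, Prox1 or Mmrn1 the ratio was 4.13 (1.15 to 22.4). Cell-free barcodes were ordered the same way, with 3.49 CPM in control and 17.9 CPM in cKO. The log2 ratio of Aqp1 after subtraction of cell-free RNA was 1.12 in stroma against 1.17 as reported, and 2.04 in mesothelial cells in either case. Cells of no gate had 81 UMIs, 15.9 CPM, in control and 327 UMIs, 27.3 CPM, in cKO, 1.72-fold (1.35 to 2.22), and over all cells the levels were 6.32 and 24.0 CPM, 3.79-fold apart (3.30 to 4.38), a contrast that includes the different shares of the classes.

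Aqp3, an aquaglyceroporin known from skin and from migrating immune cells, had its highest level in the lymphoid class in both libraries. It had 100 UMIs in 51 of 158 control cells, 125 CPM (102 to 152), and 718 UMIs in 234 of 435 cKO cells, 297 CPM (276 to 320). The cKO level was 2.37-fold higher (1.92 to 2.96). The share of cells with a UMI was 32.3% and 53.8% at median depths of 4228 and 4543 UMIs, and 14.1% (9.05 to 20.6) and 24.5% (20.5 to 28.9) after thinning to 1000 UMIs. In macrophages it was 0 of 231 control cells, which allows up to 1.30% of cells with a UMI, and 1 of 112 cKO cells (0.893%). B or plasma cell markers in the lymphoid class summed to 1.25 CPM in control, with Ms4a1 and Jchain at 0, and to 458 CPM in cKO, and dendritic markers to 232 and 436 CPM; the part of these cells in the Aqp3 contrast was not tested.

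The lymphoid Aqp3 lay mostly in cells with a gene of gamma delta T cells. Subgroups were read after the class values were seen. Cells with Trdc, the T cell receptor delta constant gene, held 87 of the 100 control UMIs and 710 of the 718 cKO UMIs. Their levels were 268 CPM in 73 control cells and 455 CPM in 303 cKO cells, and 43 (58.9%) and 227 (74.9%) of them held a UMI. Lymphoid cells without Trdc had 27.4 and 9.37 CPM. Within a library the Trdc cells were 9.76-fold above the others in control (5.42 to 19.1) and 48.5-fold in cKO (24.5 to 113). Over all cells, 137 control and 674 cKO cells held Trdc, with Aqp3 at 96.1 and 139 CPM. Those levels lie below the ones of the lymphoid Trdc cells, so Trdc cells outside the lymphoid class carried less Aqp3.

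Other lymphoid genes were read in the same way. Cells with Cd163l1, a scavenger receptor of gamma delta T cells that make interleukin 17, had 342 CPM in 56 control cells against 501 CPM in 240 cKO cells. Cells with Cd4 held no Aqp3 UMI among 20 control and 33 cKO cells. Cells with Cd8a held 0 UMIs in 10 control cells and 1 in 14 cKO cells. Cells with Ncr1, a natural killer cell receptor gene, held 0 UMIs in 19 control cells and 7 in 40 cKO cells, 19.2 CPM.

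**Figure D4:**
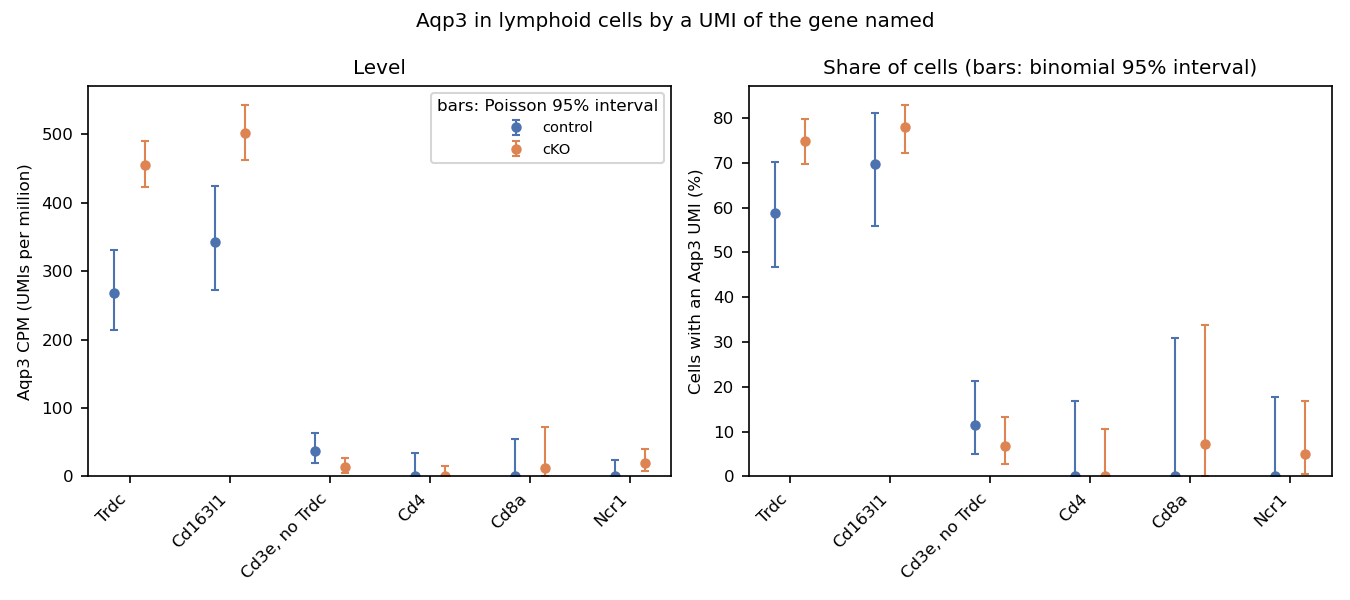
Left, Aqp3 level (CPM, linear axis) and right, percent of cells with an Aqp3 UMI, in lymphoid cells that hold a UMI of the gene named; blue is control, orange is cKO, and bars are exact 95% intervals, Poisson on the left and binomial on the right. Cells with Trdc or Cd163l1 reached 268 to 501 CPM, while cells with Cd4, Cd8a or Ncr1 stayed at or below 19.2 CPM.

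Between the libraries, Trdc cells differed both in Aqp3 and in number. Within them the cKO level was 1.70-fold higher (1.36 to 2.15), below the 2.37-fold contrast of the whole class. Trdc cells made up 73 of 158 lymphoid cells in control (46.2%, 38.2 to 54.3) and 303 of 435 in cKO (69.7%, 65.1 to 73.9). The part of this difference in make-up in the class contrast was not tested.

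Epithelial Aqp3 was sparse. It had 78 UMIs in 41 control cells, 4.63 CPM (3.66 to 5.78), and 43 UMIs in 17 cKO cells, 14.1 CPM (10.2 to 19.0), 3.05-fold higher in cKO (2.05 to 4.48), and 3.66-fold (2.46 to 5.38) in cells with a keratin UMI. Deep cells of at least 10000 UMIs held all 43 of the cKO UMIs. Cell-free RNA was ordered alike, with 4.27 CPM in control and 11.4 CPM in cKO, and with it subtracted the log2 ratio was 1.63 against 1.62 as reported. Thinned to 1000 UMIs, control kept 6 positive cells of 940 and cKO kept 0 of 103, and the log2 ratio turned to -0.72 on 7 UMIs; with equal weight per cell it was 0.14. In the 41 Aqp3-positive control cells the erythroid markers summed to 771 CPM, against 8.71 CPM in the negative ones.

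Aqp9, which carries glycerol and urea and is best known from liver and leukocytes, lay mainly in cells of no gate. There it had 85 UMIs in 40 of 1201 control cells, 16.7 CPM, and 344 UMIs in 107 of 1998 cKO cells, 28.8 CPM, 1.72-fold higher (1.36 to 2.21). The make-up of these cells differed between the libraries: epithelial markers summed to 1257 CPM in control against 83.3 CPM in cKO, with Epcam at 0 by the gate, lymphoid markers to 450 and 1676 CPM with Cd3e and Ncr1 at 0 by the gate, and neutrophil markers to 84.9 and 7.69 CPM. Their part in the result was not tested. Subgroups by Il5, Il1rl1 and Hlf were read after the values were seen. The cells with Il5, the interleukin 5 gene of type 2 lymphoid cells, stood out. Of 19 such cells in control 15 (78.9%) held Aqp9, and of 52 in cKO 38 (73.1%) did. Their levels were 449 CPM (331 to 596) and 468 CPM (402 to 541), a ratio of 1.04 (0.753 to 1.46). Within a library that was 60.6-fold (38.7 to 95.7) and 33.0-fold (26.6 to 41.0) above the other cells of no gate.

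Cells with Il1rl1, the interleukin 33 receptor, had 156 CPM in control against 263 CPM in cKO. Cells with Flt3, a dendritic cell receptor gene, had 16.3 CPM in 41 control cells and 45.3 CPM in 133 cKO cells, 2.77-fold (1.34 to 6.61). Cells without Il5, Il1rl1 and Hlf had 7.91 and 15.1 CPM, so the cells that hold one of them carried more Aqp9 in both libraries. Cells with S100a8, a neutrophil gene, numbered 6 and 3 and held 0 and 1 UMI. Macrophages had 17 UMIs, 8.78 CPM, in control and 28 UMIs, 25.8 CPM, in cKO, 2.94-fold (1.55 to 5.72), with 11 and 14 of those UMIs in a single cell. With a gate of at least 2 C1qa UMIs the log2 ratio was 0.40 against 1.54 as reported, no longer past 2-fold. Markers of other cells also differed in this class: the 5 mast cell markers summed to 11.4 CPM in control and 387 CPM in cKO, and the erythroid markers to 10.3 and 723 CPM, and their part in the result was not tested. Epithelial cells had 8 UMIs, 0.475 CPM, in control and 12 UMIs, 3.94 CPM, in cKO, 8.30-fold (3.12 to 23.4). In the cells with a keratin UMI they had 8 and 7 UMIs, 0.478 and 2.78 CPM, 5.81-fold (1.79 to 18.3).

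Aqp4, the water channel of astrocytes and of several epithelia, had 14 UMIs in 12 control cells and none in cKO. Of these, 11 lay in the epithelium, 0.653 CPM (0.326 to 1.17). The cKO epithelium was too small to show a loss, since 3 counts there would be 0.985 CPM. Over all cells the control level was 0.372 CPM and the cKO level at least 6.55-fold lower. That contrast includes the smaller epithelium of the cKO library.

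Aqp11 was low in every class. It had 34 UMIs in all control cells, 0.902 CPM, and 28 in all cKO cells, 0.529 CPM, a ratio of 0.587 (0.343 to 0.997). Epithelial cells held 18 and 5 of them, 1.07 and 1.64 CPM, a ratio of 1.54 (0.446 to 4.30), or 1.85 (0.535 to 5.16) in cells with a keratin UMI. With equal weight per cell its log2 ratio turned from 0.72 to -0.50. The 2 ratios lie on opposite sides of 1, and the epithelial interval spans it.

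Set against all genes, the members' counts past a 2-fold difference were read for members with at least 20 UMIs in both libraries together. In epithelium 5 members had enough, of which Aqp3 and Aqp9 were past 2-fold higher in cKO, where 25.9% of all genes were, and Aqp5 lower, where 10.4% were. The median log2 ratio of all epithelial genes was 0.39, so Aqp5, at -1.62, lay further below the typical gene than its own ratio shows, and Aqp3, at 1.62, less far above it. In stroma 5 members had enough, of which Aqp1 and Aqp8 were higher (5.68% of genes) and none lower (6.56%), with a median of -0.02 over all genes. In muscle 2 had enough, with none higher (7.92% of genes) and Aqp5 lower (3.75%). In macrophages only Aqp9 had enough and was higher (10.9% of genes, 3.97% lower), and in lymphoid cells only Aqp3, which was higher (6.52% of genes, 3.13% lower). In mesothelial cells 2 had enough, with Aqp1 higher (9.74% of genes) and Aqp5 lower (3.95%).

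Genes that work with aquaporins were listed by role. Of 20 genes of epithelial ion and fluid transport, 18 had enough UMIs in epithelium, of which 3 were past 2-fold higher and 2 lower, with a median log2 ratio of 0.41 beside 0.39 for all genes. Over all epithelial genes 25.9% were past 2-fold higher and 10.4% lower. Among the most counted, St14, a membrane protease, had 317 and 237 CPM, and the chloride cotransporter gene Slc12a2 had 167 and 203 CPM. In stroma, 16 of the 20 had enough, with 1 higher and 1 lower, where 5.68% and 6.56% of all genes were.

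For glycerol, which Aqp3 and Aqp9 carry, 10 of 10 handling genes were counted in epithelium, 2 higher and 1 lower (25.9% and 10.4% of all genes), with a median of 0.48 beside 0.39. The lower one was Gpat3, a glycerol-3-phosphate acyltransferase, with 62.6 CPM in control and 19.7 CPM in cKO. In lymphoid cells 8 of 10 were counted, 2 higher and none lower (6.52% and 3.13% of all genes). Of the Aqp4 anchoring complex 7 of 8 genes were counted in epithelium, 2 higher and 1 lower (again beside 25.9% and 10.4%), and the lower one was Utrn, utrophin, with 154 and 62.4 CPM. Cell volume regulators had 3 of 10 higher and 1 lower in epithelium, beside the same shares, and Lrrc8a, the volume-regulated anion channel subunit, had 76.5 and 48.0 CPM.

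Ovarian steroids act through receptors whose genes were also read. In stroma the progesterone receptor gene Pgr had 504 CPM in control against 767 CPM in cKO and the estrogen receptor gene Esr1 85.9 and 164 CPM, neither past 2-fold. Of the 4 receptor genes read, 1 was past 2-fold higher and none lower, where 5.68% and 6.56% of all stromal genes were, and their median log2 ratio was 0.77 beside -0.02 for all genes. In epithelium none of the 4 was past 2-fold, and Esr1 had 96.8 and 68.7 CPM.

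The genes whose pattern was most like a member's were sought over the 12 sums of 6 classes in 2 libraries, by Pearson's r of log2(CPM + 1) among 12000 genes. Aqp5 was nearest to Plcd3 (r = 0.945), Vangl2 (0.931) and Ccdc9b (0.928), and Aqp8 to Add2 (0.947), Nmt1 (0.943) and Krt87 (0.943). Aqp3 was nearest to Sept1 (0.965), Nfatc2 (0.955) and Fpgt (0.941), and Aqp1 to Msrb3 (0.956), Gli2 (0.943) and Zfp580 (0.942). Aqp9 was nearest to Cxcl3 (0.924), Clec4n (0.920) and Ftl1-ps1 (0.912). The 12 points share libraries, and classes differ in depth, so these are descriptions. Aqp4 and Aqp11 had too few UMIs to be placed.

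How far the ratios move with the settings was measured for the 16 pairs of member and class with enough UMIs.

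**Figure D5:**
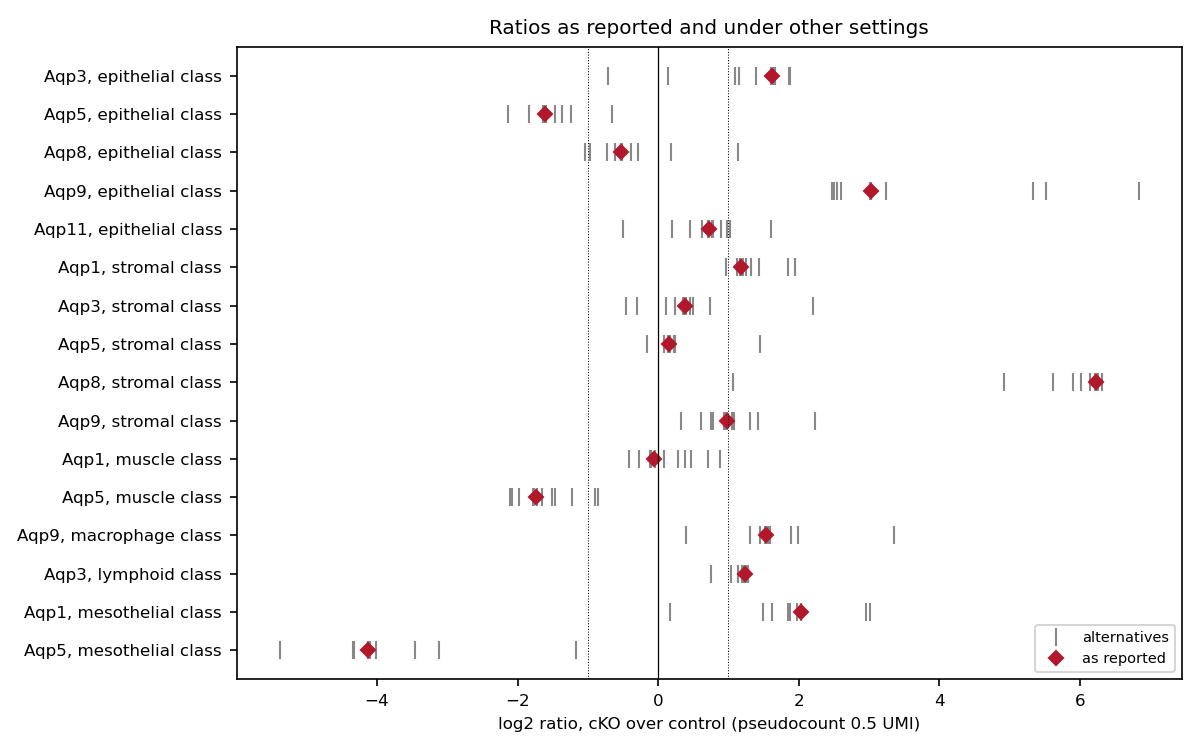
Log2 ratio of cKO to control (linear axis of log2 values, pseudocount 0.5 UMI) for 16 pairs of member and class; red diamonds are the values as reported, grey ticks the same ratio under each other setting, and dotted lines mark 2-fold. Aqp5 in epithelium, Aqp1 and Aqp8 in stroma and Aqp3 in lymphoid cells kept their direction under every setting run, and the single tick of Aqp3 in epithelium below 0 is the thinned value, -0.72.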

How the data were processed

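The files hold raw UMI counts per gene and barcode, unfiltered, as the authors deposited them. Per the file headers, the writing software was Cell Ranger 4, whereas the submitters' processing notes give Cell Ranger 6.1.1 and mm10. Annotation and filters were not given in the sources used here. Members and gene lists were chosen with earlier results of these data known, and subgroups named as chosen after the values were seen are marked as such in the text.

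Cells had at least 500 genes and at most 20% mitochondrial UMIs. Of the barcodes with enough genes, the mitochondrial limit removed 283 in control and 46 in cKO. A class held at least 1 UMI of its gate and none of another. Counts of all cells of a class were summed and given as CPM of the class total with exact Poisson intervals, shares with exact Clopper-Pearson intervals and ratios with exact conditional binomial intervals, all at 95% and for counting error only. Reads of 1 molecule were already merged by their UMI. A count of 0 was taken to allow 3 counts, and log2 ratios carry a pseudocount of 0.5 UMI. Shares were recomputed after thinning to 1000 UMIs, without shallower cells (7 control and 0 cKO epithelial cells, 10 and 11 stromal, 2 and 3 lymphoid). Barcodes of at most 100 UMIs gave the cell-free level. Doublets were scored against simulated ones and kept. At a score above 0.25 they were 20 control (0.547%) and 61 cKO cells (1.23%), and leaving them out was an alternative, as was TMM scaling (edgeR 4.0.16).

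With 1 library a group there was no test and no p-value. All 7 members are described. For each with at least 100 UMIs over the class sums the 3 most similar genes are named, and of each gene list up to 3 genes with the most UMIs. The ratio script was tested on simulated data. Python 3.11.15, numpy 2.4.6, scipy 1.17.1 and pandas 2.3.3 were used. Promoters came from RefSeq, GRCm38.p6, and coordinates from GENCODE M21, which gave a match for all 7 members. Some items are not reported here.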

Additional observations from a re-analysis of the deposited data

Results flagged for a closer look

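Barcodes that passed neither as cells nor as cell-free droplets held Aqp1 at 34.2 CPM in cKO (67 UMIs) and 6.91 CPM in control (33 UMIs). No comparison of the report uses these barcodes, and the cKO value is above the control value there.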

How the results depend on the processing

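No paired analysis was possible because each group is 1 library. Of 16 pairs of member and class, 10 kept a single sign over the settings run for them. The UMI minimum applies only to counts of pairs, and each of the 4 settings added after the data were seen was run only where it applies. The log2 ratios moved as follows. Aqp5 in epithelium, -1.62 as reported, was -0.66 after thinning, -1.23 as a mean over cells, -2.14 with TMM and -1.36 in keratin cells. Aqp1 in stroma, 1.17, was 1.85 after thinning, 1.94 without endothelial-gene cells and 1.95 without the cell richest in it. Aqp8 in stroma, 6.24, was 1.07 after thinning, on 2 UMIs. Aqp3 in lymphoid cells, 1.24, was 0.76 in Trdc cells. Aqp3 in epithelium, 1.62, turned to -0.72 after thinning, on 7 UMIs, and was 0.14 as a mean over cells. Aqp8 in epithelium, -0.52, was -0.97 with cells of several gates kept, 1.14 after thinning, 0.18 as a mean over cells and -1.05 with TMM. Aqp9 in epithelium, 3.02, was 5.51 after thinning, on 2 UMIs, 5.33 as a mean over cells and 6.84 with cell-free RNA subtracted. In stroma Aqp3, 0.38, was 2.20 after thinning, on 5 UMIs, -0.31 as a mean over cells and -0.46 with cell-free RNA subtracted, and Aqp5, 0.15, was 1.45 with cell-free RNA subtracted and -0.16 with cells of several gates kept. Aqp11 in epithelium, 0.72, was -0.50 as a mean over cells. Aqp1 in muscle, -0.06, was 0.71 with a gate of at least 2 UMIs, 0.88 with cells of several gates kept, 0.09 at 300 genes, 0.38 as a mean over cells, 0.47 without endothelial-gene cells and 0.29 without the richest cell. Aqp5 in muscle, -1.73, was -0.90 as a mean over cells and -0.85 without the richest cell. Aqp9 in macrophages, 1.54, was 0.40 with a gate of at least 2 UMIs and 3.36 after thinning, on 2 UMIs. In mesothelial cells Aqp1, 2.04, was 0.18 after thinning, and Aqp5, -4.12, was -1.17 with cells of several gates kept. Fewer UMIs or cells enter the thinned and subset values by construction; the cause of the other moves was not tested. Of the 16 pairs, 7 were past 2-fold higher and 3 lower. Over all genes, the shares by class ran from 5.68% to 25.9% higher and from 3.13% to 10.4% lower. No such share was computed for the other settings, so the counts under them have none to be read against. The number of pairs with enough UMIs changes with the setting. Higher ones were 14 of 24 with cells of several gates kept, 14 of 33 without a UMI minimum and 2 of 4 after thinning. Lower ones were 11 of 33 without a minimum, 0 of 4 after thinning and 1 of 12 without the richest cell. TMM scaling lowered all log2 ratios by 0.52 in epithelium, 0.23 in macrophages, 0.20 in mesothelial and 0.11 in lymphoid cells. Depth limits Aqp4 and Aqp11 most.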
